A study of Homo sapiens with 9 samples.

Results

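The 10 genes described here are the neurofilament genes NEFL, NEFM and INA, the progenitor filament gene NES, and 6 genes of neuron type, ATCAY, NPTX2, SYT1, GAP43, ELAVL2 and FAM19A5. They were chosen by name among 21003 genes of the count table, as genes of this kind whose RNA changes in MATR3 knockout clones, and all 10 had a row. Because the difference between knockout and wild type chose them, that difference is given as a description with no test. Tests of the 10 genes are kept to the differences between clones of the same genotype. Other genes are tested between the genotypes, in lists that were also drawn up with earlier results of these data known.

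The cells are HAP1, a near-haploid adherent human line derived from the chronic myeloid leukaemia line KBM-7. MATR3 encodes matrin 3, a nuclear protein that binds RNA and DNA. Total RNA was sequenced from 9 untreated libraries, namely MATR3 knockout (KO) clone 5 (n = 2), KO clone 1 (n = 2), wild-type (WT) clone 7 (n = 2) and WT clone 1 (n = 3). Each KO group is 1 purchased clone. The WT groups are 2 supplier batches of 1 catalogue item, which the labels call clone 1 and clone 7 and which keep those names here. Whether libraries of a clone came from separate cultures is not stated, so that a p-value reflects only how far these libraries scatter, and that scatter may be technical.

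Neurofilaments are the intermediate filaments of neurons. They are built from the light chain NEFL with the medium chain NEFM, the heavy chain NEFH and alpha-internexin (INA), and they set the calibre of axons, while nestin (NES) is the filament protein of dividing neural progenitors. Among the others, SYT1 is the calcium sensor of synaptic vesicle release, NPTX2 a secreted pentraxin that clusters AMPA receptors, GAP43 a membrane protein of growing axons, ELAVL2 a neuronal RNA-binding protein of the Hu family, ATCAY the gene for caytaxin, which is mutated in Cayman ataxia, and FAM19A5 (also TAFA5) a gene for a secreted protein of the brain.

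Library totals ran from 17205057 to 34407309 counts in KO and from 16103754 to 34204131 counts in WT libraries. MATR3 RNA was at 40.8 to 49.3 CPM (counts per 1e6 counts, after scaling for composition) in KO and 211 to 224 CPM in WT libraries. WT clone 1 replicate 1 stood apart by its share of counts in repeats, 14.0% against 7.90 to 11.2% in the other 8 libraries. Values of several genes at which it stood out, though not of all, are given with and without it. Of 15 haematopoietic markers 9 had no row in the table analysed here, PTPRC, CD34 and SPI1 among them. Of 13 neuron markers 6 had no row (DCX, STMN2, SNAP25, RBFOX3, ELAVL3 and ELAVL4). The summed level of the other 7, NEFL, NEFM and INA among them, was 93.2 to 136 CPM in KO and 90.2 to 104 CPM in WT libraries. NEFL, a chosen gene, alone held up to 44.9 CPM in KO libraries, so that nothing is read from this sum. Outside the chosen genes, TUBB3 had means of 61.1 CPM in KO and 73.2 CPM in WT libraries. MAP2 was at 2.72 and 3.54, SYN1 at 0.125 and 0.368, and SYP, alone higher in KO, at 5.47 and 3.87. The libraries are described by the genes named and by no cell type.

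KO libraries lay above all WT libraries at 7 of the 10 genes, below them at GAP43 and ELAVL2, and overlapped them at INA. In bulk RNA a change in the number of cells that express a gene and a change in RNA per cell cannot be told apart. Of all 17777 tested genes 23.4% were without overlap between the genotypes, with KO above at 11.5% and below at 11.9%, and nothing is read from the comparison, since the same contrast chose the 10 genes. All 10 genes passed the filter on low counts. No WT library was above the filter's level for ATCAY and no KO library for GAP43, so that these passed through 1 genotype alone.

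**Figure D1:**
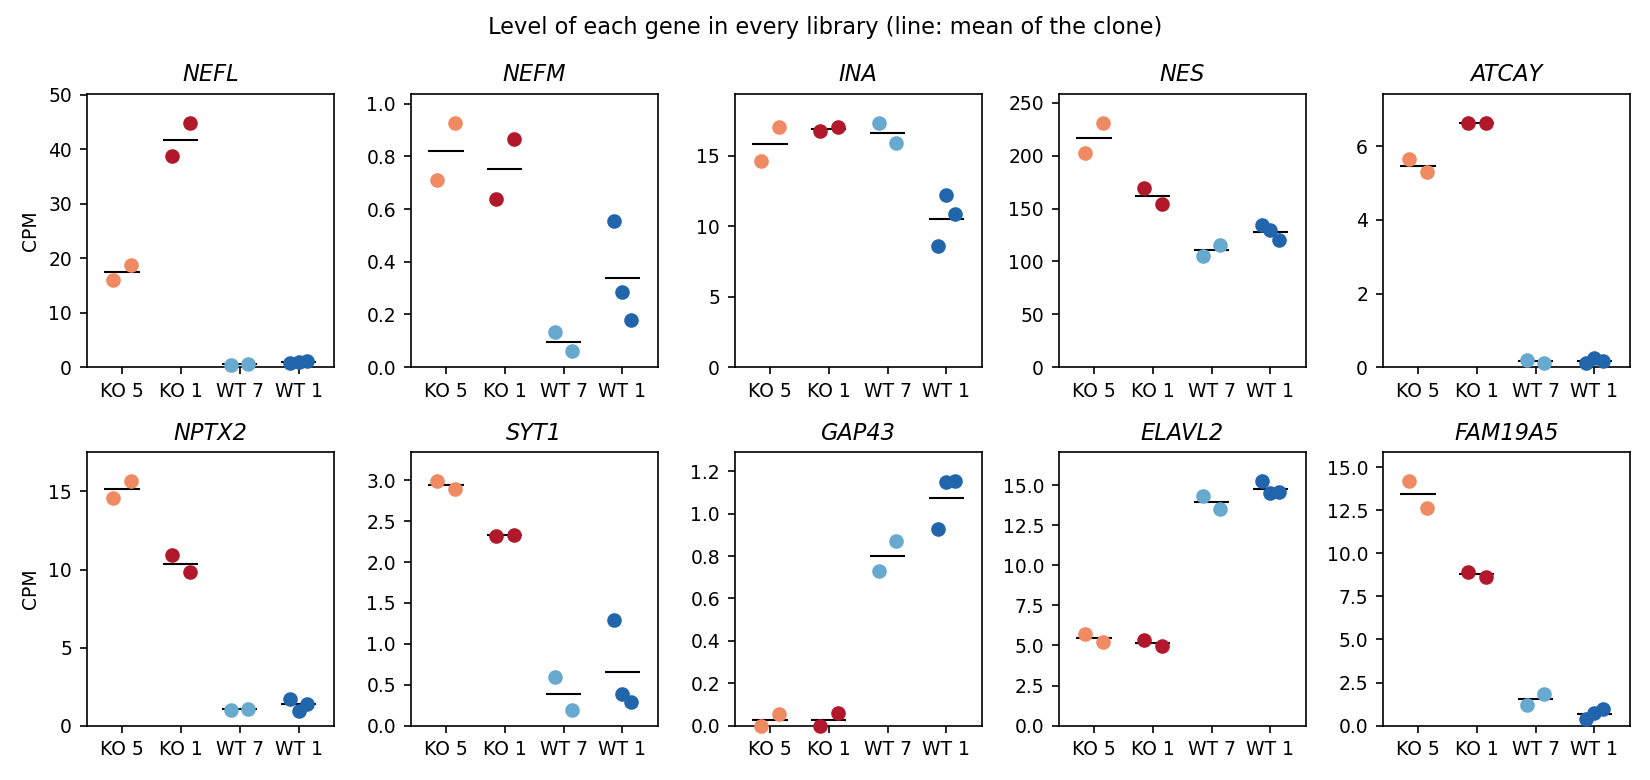
CPM of each of the 10 genes (linear axis from 0) in every library of KO clone 5, KO clone 1, WT clone 7 and WT clone 1; points are libraries and lines are clone means. Both KO clones stand apart from both WT clones at 9 genes, in opposite direction at GAP43 and ELAVL2, while INA of WT clone 7 lies with the KO clones.

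Promoter windows of 300 bases, from 250 before to 50 after an annotated start, were found in RefSeq (GRCh38.p14) for 7 of the 10 genes, in 13 windows. Shown are windows of 3 genes with more RNA in KO cells (NPTX2, chr7:98617035-98617334, plus strand; FAM19A5, chr22:48489303-48489602, plus strand; SYT1, chr12:78864524-78864823, plus strand) and of the 2 with less (GAP43, chr3:115623260-115623559, plus strand; ELAVL2, the window farthest upstream of its 6, chr9:23826191-23826490, minus strand). They are written 5′ to 3′ on the strand of the gene, and capitals mark the motifs searched.
NPTX2: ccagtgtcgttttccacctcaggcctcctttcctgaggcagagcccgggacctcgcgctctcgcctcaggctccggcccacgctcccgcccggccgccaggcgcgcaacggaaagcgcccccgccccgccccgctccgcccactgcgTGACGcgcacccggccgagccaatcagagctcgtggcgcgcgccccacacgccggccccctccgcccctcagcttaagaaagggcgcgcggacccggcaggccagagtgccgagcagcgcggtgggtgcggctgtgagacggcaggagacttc
FAM19A5: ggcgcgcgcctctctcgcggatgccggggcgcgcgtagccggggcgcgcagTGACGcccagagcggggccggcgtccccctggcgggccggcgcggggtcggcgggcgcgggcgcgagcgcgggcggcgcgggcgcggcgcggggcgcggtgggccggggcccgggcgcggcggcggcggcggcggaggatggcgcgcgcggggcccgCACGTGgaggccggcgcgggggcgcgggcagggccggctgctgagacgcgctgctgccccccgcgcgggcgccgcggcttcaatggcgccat
SYT1: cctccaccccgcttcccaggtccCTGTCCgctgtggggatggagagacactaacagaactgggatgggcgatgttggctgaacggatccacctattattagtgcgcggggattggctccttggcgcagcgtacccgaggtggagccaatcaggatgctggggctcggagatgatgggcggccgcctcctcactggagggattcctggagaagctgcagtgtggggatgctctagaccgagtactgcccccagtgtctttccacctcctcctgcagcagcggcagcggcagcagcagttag
GAP43: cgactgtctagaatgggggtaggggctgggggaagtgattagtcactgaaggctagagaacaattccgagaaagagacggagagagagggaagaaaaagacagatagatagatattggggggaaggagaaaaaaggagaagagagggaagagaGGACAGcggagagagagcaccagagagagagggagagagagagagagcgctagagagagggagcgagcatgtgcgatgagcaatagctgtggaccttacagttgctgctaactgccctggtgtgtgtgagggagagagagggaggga
ELAVL2: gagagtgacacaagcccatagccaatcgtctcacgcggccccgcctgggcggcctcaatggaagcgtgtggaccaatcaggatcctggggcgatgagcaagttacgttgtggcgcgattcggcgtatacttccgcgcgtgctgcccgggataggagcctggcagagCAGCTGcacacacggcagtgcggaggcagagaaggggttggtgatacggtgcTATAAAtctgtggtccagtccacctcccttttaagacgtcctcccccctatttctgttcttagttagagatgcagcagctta

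The motifs were searched on both strands, and no base lay in 2 of them. GGACAG, a core of the RE1 element to which the repressor REST binds, was in 6 of the 13 windows, among them those shown of SYT1 and GAP43 and 3 of ELAVL2, of which 2 overlap and hold the same match, and in 20.6% of 34796 promoter windows of the same length. TTCAGCACC, the other part of RE1, was in 0.379% of all windows and is not among these letters. TGACG, a part of the cAMP response element, was in 5 of 13 windows, among them those shown of NPTX2 and FAM19A5, and in 24.5% of all. The E-box CAGCTG was in 2 of 13 and 17.9% of all, the E-box CACGTG in 1 (FAM19A5) and 7.2% of all, and TATAAA in 1 (ELAVL2) and 11.6% of all. The windows shown differed in base composition, with 87.7% G and C at FAM19A5, 74.3% at NPTX2, 62% at SYT1, 58% at ELAVL2 and 52.7% at GAP43, against a median of 58.7% over all windows. Other windows of the same gene differed too, from 43.3 to 74.3% at ELAVL2. The second window of FAM19A5, not shown, had 80.7% and none of the motifs. No searched motif was in all 3 windows shown of the genes with more RNA in KO cells. A match is a description of letters, not a site.

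NEFL, on chromosome 8 (hg38, 24950955 to 24956721, minus strand), had the largest difference of the 10 with all libraries, though not in KO clone 5 alone, where ATCAY (4.91) and GAP43 (-4.92) were farther from WT than NEFL (4.64). KO clone 5 held 16.0 and 18.8 CPM and KO clone 1 held 38.7 and 44.9 CPM, against 0.463 and 0.558 CPM in WT clone 7 and 0.802, 0.957 and 1.06 CPM in WT clone 1. Every KO library was thus at least an order of magnitude above every WT library, and the clones did not overlap within either genotype. The means were 29.6 ± 14.3 CPM in KO (SD, n = 4) and 0.769 ± 0.256 CPM in WT (SD, n = 5), a log2 difference of 5.24 (SE 0.37). By edgeR NEFL alone of the 10 genes differed past the threshold between the KO clones, at 1.27 log2 units lower in KO clone 5 than in KO clone 1 (-1.27, SE 0.13, edgeR adjusted p = 0.0014), against 0.692% of tested genes called in this contrast. Without KO clone 1 replicate 2 the difference was -1.15 and the call was lost (edgeR adjusted p = 0.0557, the highest of 15 alternatives, whose lowest was 4.5e-10).

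NEFM lies 31.9 kb from NEFL on the other strand (chromosome 8, 24913758 to 24919098) and was far lower. KO clone 5 held 0.711 and 0.927 CPM and KO clone 1 held 0.639 and 0.865 CPM, against 0.132 and 0.0621 CPM in WT clone 7 and 0.555, 0.287 and 0.177 CPM in WT clone 1. The highest WT library, WT clone 1 replicate 1, came close to the lowest KO library. The log2 difference was 1.78 (SE 0.41) with that library and 2.20 without it, on 73 counts in the 4 KO and 26 in the 5 WT libraries. Unlike NEFL, the KO clones were at similar means, 0.819 CPM in KO clone 5 and 0.752 CPM in KO clone 1 (0.08, SE 0.43, edgeR adjusted p = 0.99).

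INA (chromosome 10, 103277138 to 103290346, plus strand) did not separate the genotypes. KO clone 5 held 14.7 and 17.1 CPM and KO clone 1 held 16.8 and 17.0 CPM, against 17.4 and 15.9 CPM in WT clone 7 and 8.57, 12.2 and 10.9 CPM in WT clone 1. WT clone 7 lay within or above the range of the KO libraries and WT clone 1 below it, and the log2 difference of 0.33 (SE 0.17) turned to -0.03 when WT clone 1 was left out. Between the WT clones INA was 0.65 log2 units higher in WT clone 7 than in WT clone 1 (SE 0.14, edgeR adjusted p = 0.059). This passed when replicate number was added as a block (0.69, edgeR adjusted p = 0.0278, within 0.0045 to 0.324 over 15 alternatives). That block also sets aside WT clone 1 replicate 3, the only library with that replicate number.

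NES (chromosome 1, 156668763 to 156677407, minus strand) was the most abundant of the 10 in both genotypes. KO clone 5 held 203 and 231 CPM and KO clone 1 held 170 and 154 CPM, against 105 and 116 CPM in WT clone 7 and 134, 129 and 120 CPM in WT clone 1. All KO libraries were above all WT libraries, by less than for the neurofilament light chain, at 0.65 log2 units (SE 0.11). Here KO clone 5 was the higher of the KO clones, the reverse of NEFL (0.42, SE 0.10, edgeR adjusted p = 0.11). That difference did not pass edgeR but passed DESeq2 (adjusted p = 0.00852), and edgeR without WT clone 1 replicate 1 (adjusted p = 0.0282), within 0.0085 to 0.745 over 15 alternatives.

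Scaled by the length of annotated exons, NEFL was at 7.52 ± 3.64 CPM per kb in KO and 0.195 ± 0.0648 CPM per kb in WT libraries, and INA at 5.04 ± 0.357 in KO and 3.99 ± 1.11 in WT (SD, n = 4 and n = 5). NEFM was at 0.216 ± 0.0367 CPM per kb in KO and 0.0668 ± 0.053 in WT libraries. Of the summed per-length level of these 3 subunit genes, NEFL made up 46.4 to 67.5% in KO and 2.14 to 7.35% in WT libraries. INA made up 31.0 to 51.4% in KO and 88.1 to 97.2% in WT libraries, and NEFM at most 2.48% in KO and 5.10% in WT libraries. In KO clone 5 NEFL and INA had similar shares (46.4% and 46.4% NEFL against 51.4% and 51.1% INA in replicates 1 and 2), while in KO clone 1 NEFL was the larger (64.8% and 67.5%). The heavy chain gene NEFH had no row in the table analysed here.

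**Figure D2:**
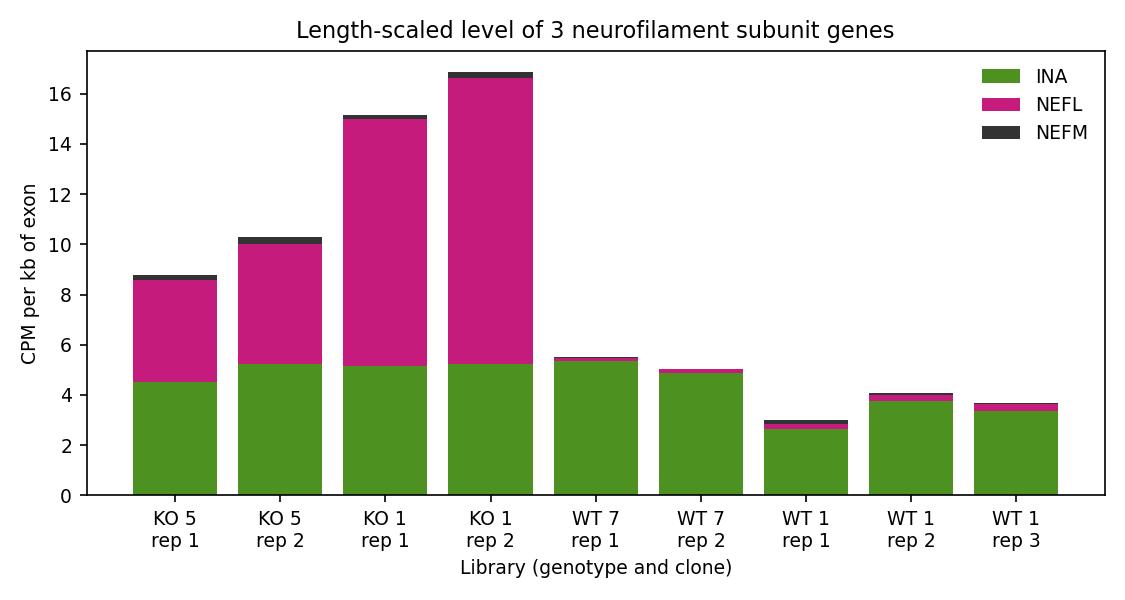
Length-scaled level (CPM per kb of exon, bars from 0) of INA, NEFL and NEFM stacked for each library of KO clone 5, KO clone 1, WT clone 7 and WT clone 1. The sum was 8.77 to 16.9 in KO and 2.99 to 5.49 in WT libraries, with the NEFL part large in KO libraries and the INA part alike in KO and WT clone 7 libraries.

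The region of NEFL and NEFM carried further RNA that was higher in KO cells. An Ensembl gene with no symbol that overlaps NEFL on the other strand (ENSG00000272157) had 12 and 14 counts in KO clone 5 and 19 and 39 in KO clone 1, against 0 and 1 count in WT clone 7 (replicates 1 and 2) and 0 in each WT clone 1 library. Over pooled counts, 84 in KO and 1 in WT, the KO over WT ratio was 108 with an exact 95% binomial interval of 18.9 to 4314, which covers counting error only. A like gene that overlaps NEFM (ENSG00000272163) was at 0.89 ± 0.358 CPM in KO and 0.0841 ± 0.0775 CPM in WT libraries (SD, n = 4 and n = 5) and rose by 3.42 log2 units (SE 0.50, edgeR adjusted p = 0.00036). No WT library was above the filter's level of 0.475 CPM for either gene. Both thus passed the filter through KO libraries alone, and nothing is read from this p. The libraries were made with a directional kit, but the strand setting of the counting is not given in the sources used here, so that reads of these genes and of NEFL or NEFM may not be told apart. At most 1.13 CPM were counted for the gene opposite NEFL in a KO library, against at least 16.0 CPM for NEFL. The third tested gene near NEFL, DOCK5, a guanine nucleotide exchange factor gene at 228 kb, fell by 0.34 log2 units (SE 0.10, edgeR adjusted p = 0.0264).

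Within 250 kb of the 10 genes lay 45 other tested genes, of which 6 rose and 6 fell (26.7% called, against 23.2% of all tested genes). Among those that rose were the genes opposite NEFL and NEFM, whose reads may not be told apart from those of the chosen genes. Nothing is therefore read from this share. Next to NES, CRABP2, which encodes a carrier of retinoic acid to its nuclear receptors, was at 22.9 ± 0.707 CPM in KO and 5.14 ± 1.66 CPM in WT libraries (SD, n = 4 and n = 5) and rose by 2.14 (SE 0.18, edgeR adjusted p = 3.8e-06). It lies 22.2 kb from NES. An Ensembl gene without a symbol at 23.9 kb, ENSG00000272405, fell by 3.70 (SE 0.63, edgeR adjusted p = 0.0009). It was near 0 in KO, at 0.0635 ± 0.058 CPM, against 0.762 ± 0.368 CPM in WT libraries. It passed the filter through WT libraries alone and was tested in 16 of 21 alternatives, and nothing is read from its p. GPATCH4 (-0.43), ISG20L2 (-0.27) and PRCC (-0.22) fell slightly. ZFR2, a zinc finger gene 10.8 kb from ATCAY on the other strand, rose by 1.13 (SE 0.30, edgeR adjusted p = 0.0169) and TJP3, a tight junction gene at 129 kb, by 1.94 (SE 0.30, edgeR adjusted p = 0.00058). ZFR2 had 4.41 to 5.34 CPM in KO and 1.02 to 4.01 CPM in WT libraries, where WT clone 1 replicate 1 was the highest. Without that library the difference of ZFR2 was 1.43 (edgeR adjusted p = 0.000687), and without WT clone 1 it was 1.95. Its call was lost without KO clone 5 replicate 2 (edgeR adjusted p = 0.0519), without either KO clone and with clones summed, with a p of up to 0.103. Of the other called neighbours DOCK5, PRCC, TRRAP, ISG20L2 and GPATCH4 lost the call in 7, 6, 4, 3 and 2 of 21 alternatives, with an adjusted p of up to 0.238. Near NPTX2, BAIAP2L1 rose by 0.38 and TRRAP fell by 0.21, at 216 and 248 kb. None of the 8 tested neighbours of INA passed, among them NT5C2, which overlaps it on the other strand (-0.01, edgeR adjusted p = 0.98), and neither did the 1 of SYT1. GAP43, ELAVL2 and FAM19A5 had no other tested gene in the window.

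**Figure D3:**
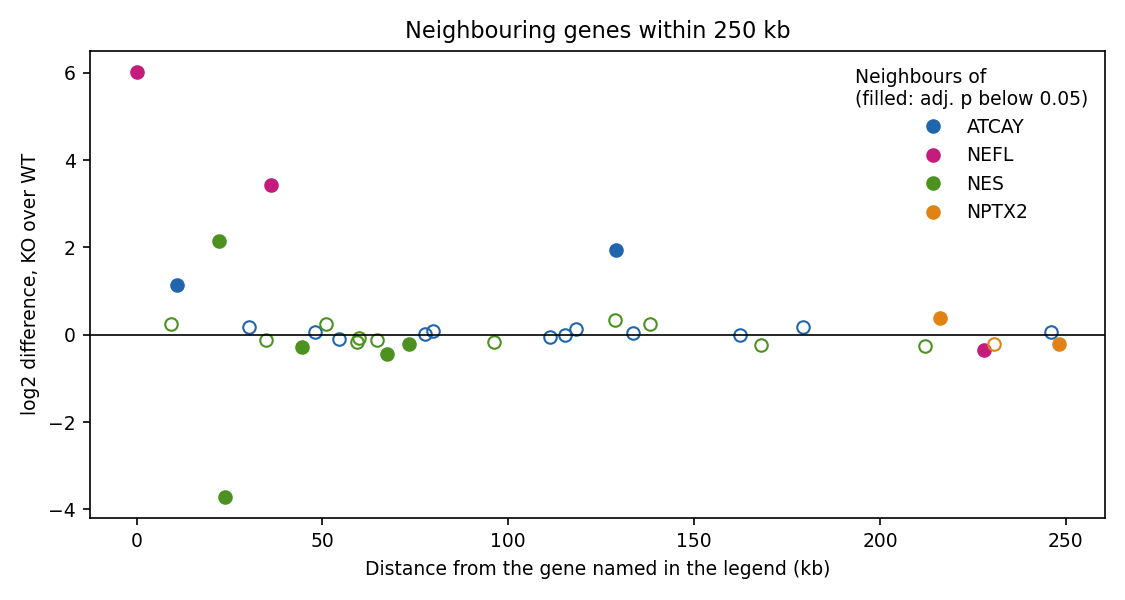
log2 difference (KO over WT) of tested genes against their distance in kb from NEFL, NES, ATCAY or NPTX2, with filled points for an edgeR adjusted p below 0.05. Filled points beyond 1 log2 unit lie at NEFL (6.02 and 3.42), NES (2.14 and -3.70) and ATCAY (1.13 and 1.94), among open points near 0.

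ATCAY (chromosome 19, 3879864 to 3928082, plus strand) had 560 counts over the 4 KO libraries and 21 over the 5 WT libraries. KO clone 5 held 5.64 and 5.29 CPM and KO clone 1 held 6.62 and 6.64 CPM, against 0.198 and 0.124 CPM in WT clone 7 and 0.123, 0.239 and 0.177 CPM in WT clone 1. The libraries of each genotype lay close together, and the means of 6.05 ± 0.686 CPM in KO (SD, n = 4) and 0.172 ± 0.0497 CPM in WT (SD, n = 5) gave a log2 difference of 5.05 (SE 0.20). The KO clones differed by -0.28 (KO clone 5 minus KO clone 1, SE 0.19, edgeR adjusted p = 0.71).

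NPTX2 (chromosome 7, 98617285 to 98629869, plus strand) held 14.6 and 15.7 CPM in KO clone 5 and 10.9 and 9.84 CPM in KO clone 1, against 1.02 and 1.05 CPM in WT clone 7 and 1.73, 0.957 and 1.39 CPM in WT clone 1. The log2 difference was 3.37 (SE 0.20). FAM19A5 (chromosome 22, 48489553 to 48850912, plus strand) was alike in level, with 14.2 and 12.7 CPM in KO clone 5 and 8.94 and 8.65 CPM in KO clone 1, against 1.19 and 1.86 CPM in WT clone 7 and 0.370, 0.717 and 0.975 CPM in WT clone 1 (3.43, SE 0.30). At both genes the KO clone 5 libraries were above those of KO clone 1, by 0.55 (SE 0.17, edgeR adjusted p = 0.32) for NPTX2 and 0.61 (SE 0.22, edgeR adjusted p = 0.42) for FAM19A5. Neither difference passed.

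SYT1 (chromosome 12, 78863993 to 79452008, plus strand) held 2.99 and 2.89 CPM in KO clone 5 and 2.32 and 2.34 CPM in KO clone 1, against 0.595 and 0.186 CPM in WT clone 7 and 1.30, 0.383 and 0.295 CPM in WT clone 1. As with NEFM, WT clone 1 replicate 1 was the highest WT library. The log2 difference was 2.30 (SE 0.38) with it and 2.77 without it.

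GAP43 and ELAVL2 had less RNA in KO cells. GAP43 (chromosome 3, 115623510 to 115721490, plus strand) had 0 and 1 count in KO clone 5 and 0 and 2 in KO clone 1 (replicates 1 and 2), against 0.727 and 0.869 CPM in WT clone 7 and 0.925, 1.15 and 1.15 CPM in WT clone 1. Pooled over libraries these were 3 counts in KO and 114 in WT, a KO over WT ratio of 0.0338 with an exact 95% binomial interval of 0.00687 to 0.101, which covers counting error only. A fitted log2 difference of so low a gene depends on the prior count of the fit. ELAVL2 (chromosome 9, 23690104 to 23826337, minus strand) held 5.69 and 5.24 CPM in KO clone 5 and 5.34 and 4.96 CPM in KO clone 1, against 14.3 and 13.5 CPM in WT clone 7 and 15.2, 14.5 and 14.6 CPM in WT clone 1. Its means were 5.31 ± 0.301 CPM in KO (SD, n = 4) and 14.4 ± 0.614 CPM in WT (SD, n = 5), a log2 difference of -1.45 (SE 0.08), the smallest SE of the 10.

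Each KO clone against the mean of the WT clones gave the same direction at all 10 genes, a direction that the choice of the genes largely fixes. NEFL was at 4.64 (SE 0.14) in KO clone 5 and 5.91 (SE 0.13) in KO clone 1, ATCAY at 4.91 and 5.18, FAM19A5 at 3.68 and 3.07, NPTX2 at 3.67 and 3.13 and SYT1 at 2.53 and 2.19. NEFM was at 2.13 in KO clone 5 and 2.06 in KO clone 1, NES at 0.87 and 0.44, INA at 0.25 and 0.35, and ELAVL2 at -1.39 and -1.48. These values share their WT libraries and are given side by side only. The authors' deposited table gave log2 differences within 0.04 of those of edgeR for 9 of the 10 genes, such as 5.26 for NEFL, and -4.90 against -4.68 for GAP43, whose KO counts are near 0 and whose fitted value was -5.38 without KO clone 1 replicate 2.

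**Figure D4:**
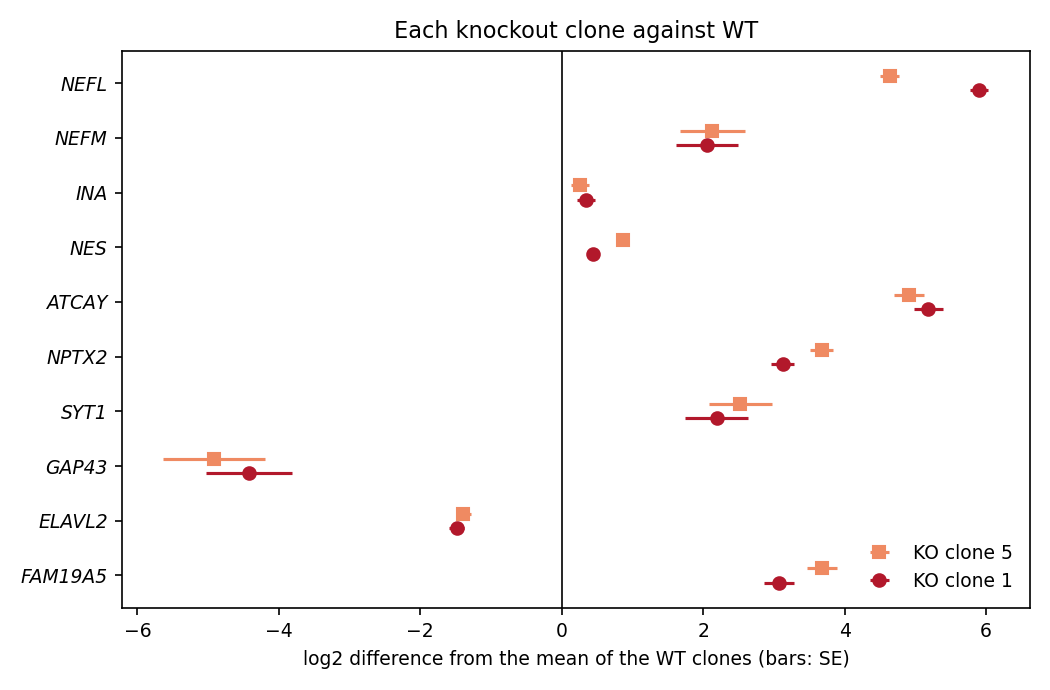
log2 difference of KO clone 5 and KO clone 1 from the mean of the WT clones for each gene, with SE bars from the edgeR fit of 4 groups. NEFL is the gene at which the KO clones are farthest apart for their SE, 4.64 in KO clone 5 and 5.91 in KO clone 1.

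Between the WT clones 0 of the 10 genes passed edgeR, against 0.613% of tested genes, and 1, INA, was called by DESeq2. An unadjusted edgeR p below 0.05 was reached by 5. The 0.613% is for adjusted p, and the share of all genes at the unadjusted p was not counted. Nothing is therefore read from the 5. NEFL was lower in WT clone 7 than in WT clone 1 by 0.95 log2 units (-0.95, SE 0.26, edgeR adjusted p = 0.0887), while FAM19A5 was higher by 0.98 (SE 0.32, edgeR adjusted p = 0.13). With replicate number as a block 431 genes were called between the WT clones, against 109 without it. Only WT clone 1 has a replicate 3, so that the block also sets that library aside. Leaving it out without a block gave 3 calls.

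Per kb of exon, the order of the levels in KO libraries was NES (34.0 ± 6.19 CPM per kb, SD, n = 4), NEFL (7.52 ± 3.64), INA (5.04 ± 0.357), NPTX2 (4.21 ± 0.928), FAM19A5 (3.61 ± 0.890), ATCAY (1.14 ± 0.129), ELAVL2 (1.03 ± 0.0586), SYT1 (0.278 ± 0.0374), NEFM (0.216 ± 0.0367) and GAP43 (0.0148 ± 0.0171). Neighbours from NEFL to FAM19A5, ATCAY and ELAVL2, and SYT1 and NEFM overlapped within 1 SD. In WT libraries the order was NES (21.7 ± 2.08 CPM per kb, SD, n = 5), INA (3.99 ± 1.11), ELAVL2 (2.81 ± 0.119), GAP43 (0.507 ± 0.0970), NPTX2 (0.406 ± 0.107), FAM19A5 (0.332 ± 0.182), NEFL (0.195 ± 0.0648), NEFM (0.0668 ± 0.0530), SYT1 (0.0582 ± 0.0467) and ATCAY (0.0325 ± 0.00937). There INA and ELAVL2, neighbours from GAP43 to NEFL and those from NEFM to ATCAY overlapped within 1 SD. The place of NEFL next after NES holds for the mean of the KO libraries. In both KO clone 5 libraries INA was above NEFL per kb, as the shares given above show.

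The genes whose profile over the 9 libraries was nearest to that of NEFL were TPM2, POF1B, VCAM1, ATCAY and MME, at root-mean-square distances of 0.59 to 0.84 log2 units among 15365 other genes with a mean of at least 1 CPM. TPM2 encodes a tropomyosin, POF1B an actin-binding protein, VCAM1 an adhesion molecule and MME the cell surface peptidase neprilysin. MME was the one of these that also differed between the KO clones (-0.82 in KO clone 5 against KO clone 1, edgeR adjusted p = 0.0015). Nearest to ATCAY were RTL8B, a gene derived from a retrotransposon, MME, the long non-coding RNA gene HOTAIR, TPM2 and VCAM1, at 0.24 to 0.35 log2 units. Among the 10 genes themselves GAP43 and ELAVL2 were the nearest pair (0.16), and NEFM was nearest to NES (0.24), on a scale of log2(CPM + 0.5) that shrinks the change of genes at low levels. HOTAIR is transcribed antisense in the HOXC cluster, and the strand setting of its counts is not given here.

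Other genes of the same families and functions, in 11 lists of 227 genes that leave out the 10, moved both ways. Of 144 tested, 22 rose and 33 fell (38.2% called, against 23.2% of all tested genes, 11.3% higher and 11.9% lower), with a median log2 difference of -0.04 (0.00 over all genes). With the libraries of each clone summed, 16 of 152 tested rose and 13 fell (19.1% called, against 7.97% of the 20575 genes tested in that fit). The lists were drawn up with earlier results of these data known, so that nothing is read from these shares. Of 4 tested other intermediate filament genes, 2 fell (50% called). The shares called in this and the next lists stand against the same 23.2%. The 2 were VIM, the vimentin gene of mesenchymal cells, at 329 ± 67.1 CPM in KO and 508 ± 92.3 CPM in WT libraries (± is the SD here and for the genes below, n = 4 and n = 5; -0.62, SE 0.16, edgeR adjusted p = 0.0127), and SYNM, which encodes synemin (-0.37, SE 0.11, edgeR adjusted p = 0.0356). PRPH, the peripherin gene of peripheral neurons, was at 0.608 CPM in KO and 0.822 CPM in WT libraries (-0.43, edgeR adjusted p = 0.29). The call of VIM was lost without KO clone 5 (edgeR adjusted p = 0.153) or WT clone 7 (0.0622) and with clones summed (0.0899), within 0.00028 to 0.153 over 21 alternatives, and that of SYNM in 10 of 21 alternatives, with an adjusted p of 0.0016 to 0.242.

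Of 27 genes of the neuronal cytoskeleton 2 rose and 5 fell (25.9% called). KIF5A, a neuronal kinesin that moves neurofilaments along axons, held 8.06 and 9.87 CPM in KO clone 5 and 5.46 and 5.25 CPM in KO clone 1, against 2.71 and 2.17 CPM in WT clone 7 and 1.23, 1.87 and 1.24 CPM in WT clone 1. It rose by 1.94 log2 units (SE 0.26, edgeR adjusted p = 0.000234). ANK2, an ankyrin that anchors membrane proteins, fell to 25.7 ± 3.93 CPM in KO, against 63.1 ± 8.79 CPM in WT libraries (-1.29, SE 0.12, SD, n = 4 and n = 5), and DPYSL5, a collapsin response mediator gene, fell by 0.65 (SE 0.06). Without WT clone 1 replicate 1, the highest WT library for ANK2, the difference of ANK2 was -1.20. The neuron markers TUBB3 (61.1 CPM in KO and 73.2 CPM in WT, edgeR adjusted p = 0.10) and MAP2 (2.72 CPM in KO and 3.54 CPM in WT, edgeR adjusted p = 0.58) did not pass.

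Of 13 growth cone and adhesion genes 3 rose and 4 fell (53.8% called). MARCKS, like GAP43 a membrane-bound substrate of protein kinase C, rose to 430 ± 15.1 CPM in KO, against 189 ± 22.7 CPM in WT libraries (1.19, SE 0.08, SD, n = 4 and n = 5), and PALM, a membrane protein gene, rose by 0.99 (SE 0.13). CNTN1, a contactin of axons, fell to 2 counts over the 4 KO libraries, against 134 over the 5 WT libraries, a KO over WT ratio of 0.0192 (exact 95% binomial interval 0.0023 to 0.0706, counting error only).

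At the synapse, 6 of 17 genes of the release machinery rose and 2 fell (47.1% called), whereas of 6 tested relatives of SYT1 2 fell (33.3% called), and the other 4 did not pass. BSN, which encodes the active zone protein bassoon, rose by 0.89 (SE 0.14) to 11.5 CPM in KO, against 6.21 CPM in WT libraries (means, n = 4 and n = 5). RAB3B, a vesicle GTPase gene, fell by 0.61 (SE 0.08). SYT6 was at 2.55 ± 0.7 CPM in KO and 5.71 ± 0.979 CPM in WT libraries (-1.17, SE 0.19) and SYT11, which lacks calcium binding, fell by 0.97 (SE 0.18). On the receiving side, 3 of 21 genes rose and 4 fell (33.3% called). GRIN1, the obligate subunit of NMDA receptors, held 1.28 and 1.42 CPM in KO clone 5 and 2.26 and 2.68 CPM in KO clone 1, against at most 0.370 CPM in WT libraries (4.27, SE 0.56, edgeR adjusted p = 0.000157), on 185 KO and 11 WT counts. Without WT clone 1 replicate 1, which held 6 of the WT counts, the difference was 5.17 (edgeR adjusted p = 1.34e-05, over alternatives up to 0.00799). No WT library was above the filter's level of 0.475 CPM for GRIN1. GRIN1 thus passed the filter through KO libraries alone, and nothing is read from its p. The adhesion gene NLGN1 fell to 4.14 ± 0.374 CPM in KO, against 15.2 ± 1.54 CPM in WT libraries (-1.87, SE 0.11), and the kainate receptor gene GRIK4 fell by 1.38 (SE 0.15).

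Among 10 neuronal RNA-binding genes (20% called), CELF5 rose by 1.61 (SE 0.29, edgeR adjusted p = 0.0018) and CELF2 fell by 1.24 (SE 0.26, edgeR adjusted p = 0.0047). The call of CELF2, whose KO clones differ, was lost with clones summed (edgeR adjusted p = 0.0823, the highest of 21 alternatives, from 6.9e-06). ELAVL2's relatives ELAVL3 and ELAVL4 had no row in the table analysed here. The other 2 tested TAFA genes did not follow FAM19A5, with FAM19A4 at 1.77 CPM in KO and 1.70 CPM in WT libraries (edgeR adjusted p = 0.90) and FAM19A2 at 1.02 CPM in KO and 1.66 CPM in WT libraries (edgeR adjusted p = 0.11). Of 4 relatives and partners of caytaxin BNIPL fell (-0.70, SE 0.21, edgeR adjusted p = 0.0303), a call lost in 11 of 21 alternatives with a p of up to 0.213. Of 6 tested genes in a list of neurosecretory and other neuron-type genes 2 rose and 0 fell (33.3% called). ENO2, the neuronal enolase gene, rose by 0.55 (SE 0.09) and the adhesion receptor gene CELSR3 by 0.69 (SE 0.13), neither of them a gene of secretion. The 4 that did not pass were VGF (-0.20), SCG5 (0.14), UCHL1 (-0.18) and RTN1 (0.67).

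Of 34 neural transcription factor genes 5 rose and 12 fell (50% called). PAX6, a regulator of neural progenitors and the eye, held 0.332 and 0.763 CPM in KO clone 5 and 0.406 and 0.664 CPM in KO clone 1, against 5.75 and 6.27 CPM in WT clone 7 and 8.08, 8.61 and 7.65 CPM in WT clone 1 (-3.71, SE 0.23, edgeR adjusted p = 5.25e-07). ZIC2 fell by 1.03 (SE 0.12), and SOX4, which acts in neuronal differentiation, rose by 0.60 (SE 0.07) to 149.6 ± 5.67 CPM in KO, against 98.5 ± 9.05 CPM in WT libraries (SD, n = 4 and n = 5). REST, the repressor of neuronal genes outside neurons, was at 48.1 ± 3.51 CPM in KO and 52.5 ± 5.64 CPM in WT libraries (-0.12, SE 0.08, edgeR adjusted p = 0.33). Of 18 genes of REST and its corepressors 3 rose and 2 fell (27.8% called). The deacetylase gene HDAC2 rose by 1.01 (SE 0.06) to 356 ± 23 CPM in KO, against 177 ± 5.09 CPM in WT libraries, and RCOR2, a CoREST gene, rose by 1.17 (SE 0.20), while RCOR3 fell by 0.40 (SE 0.08). The call of RCOR3 was lost without KO clone 5 (edgeR adjusted p = 0.0642) and with clones summed (0.0918, the highest of 21 alternatives, from 0.00037).

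Markers of other cell types were also mixed. The summed level of 6 glial markers with a row was 32.7 to 37.2 CPM in KO and 42.3 to 46.6 CPM in WT libraries, with 8 of 14 without a row, S100B, SOX10 and MOG among them. SLC1A3, a glutamate transporter gene, fell by 1.23 (SE 0.08) and CSPG4 rose by 1.06 (SE 0.34, edgeR adjusted p = 0.0419). The other 4 tested glial markers did not pass (33.3% called, against 23.2% of all tested genes). Muscle markers were at 26.4 to 32.3 CPM in KO and 11.8 to 15.2 CPM in WT libraries, of which TNNT1 rose by 1.45 (SE 0.12) and RYR1 by 0.84 (SE 0.24, edgeR adjusted p = 0.0231), with 11 of 15 without a row, MYOD1 and MYOG among them. Of the 3 tested (66.7% called), MYH3 went the other way and did not pass (-0.61, edgeR adjusted p = 0.15). Haematopoietic markers were at 96.8 to 106 CPM in KO and 112 to 122 CPM in WT libraries, of which KIT fell by 2.92 (SE 0.24) and RUNX1 by 0.73 (SE 0.15). The other 3 of 5 tested did not pass (40% called). The most abundant, GATA2, was at 47.5 CPM in KO and 50.6 CPM in WT libraries (-0.09). TAL1 was higher in KO, at 43.2 and 38.6 CPM (0.16), and LYL1 lower, at 0.633 and 1.06 CPM (-0.67). Nothing is read from shares of so few genes. Of 21 alternatives, the calls of CSPG4, RYR1 and RUNX1 were lost in 7, 6 and 2, with an adjusted p of up to 0.491, 0.217 and 0.0726. WT clone 1 replicate 1 was the lowest WT library for CSPG4 and the highest for RUNX1. Without it the differences were 0.88 and -0.59. The part of such cells in the values of the 10 genes was not tested.

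**Figure D5:**
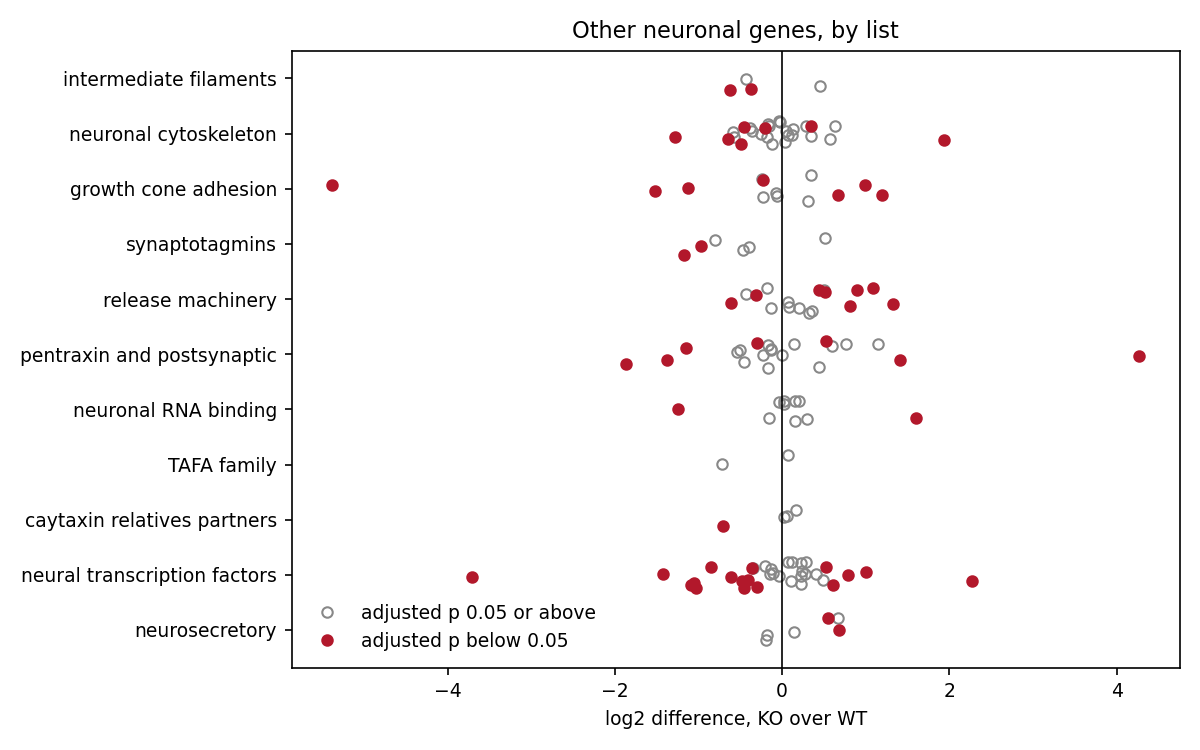
log2 difference (KO over WT) of each of 144 tested genes in 11 lists of other neuronal genes, 1 row of points per list, filled where the edgeR adjusted p is below 0.05. Filled points lie on both sides of 0, with 22 higher and 33 lower in KO; the far points are CNTN1 and PAX6 on the left and GRIN1 on the right.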

How the data were processed

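Per the labels' protocols, total RNA was depleted of ribosomal RNA and made into directional libraries with UMI adaptors. STAR 2.5.2a, DESeq, DESeq2 1.22.2 and hg38 are named in the submitters' processing notes, and no source used here gives the annotation release, strand setting or use of UMIs. The authors deposited raw counts per gene and repeat subfamily (smallest row total 37) and, per the file headers, a log2 fold change from their DESeq results; their normalized counts were not used.

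All 21003 genes and 1111 repeats entered the fit, and edgeR's filterByExpr by genotype (minimum count 10) left 17777 genes and 1052 repeats. TMM scaling and edgeR quasi-likelihood tests were used, with a genotype term for KO against WT and 4 groups for contrasts of clones. The fit with the genotype term ignored clone, so that its SE and p treat libraries of the same clone as independent. Benjamini-Hochberg adjustment ran over all rows, and a call needed an adjusted p below 0.05. SE is that of the edgeR log2 difference, and CPM are per 1e6 after TMM scaling.

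Positions and exon lengths came from GENCODE 44 and promoters from RefSeq. Lists were named by up to 3 called genes of smallest p, plus REST; nearest profiles (5 each, on log2(CPM + 0.5)) and called neighbours within 250 kb followed. PRPH, the TAFA genes, NT5C2, TUBB3, MAP2, SYN1, SYP, VGF, SCG5, UCHL1, RTN1, MYH3, GATA2, TAL1 and LYL1 were named after their values were seen. A gene that the rule names is not reported here. The 10 genes and the lists were chosen with earlier results of these data known. Libraries with the same replicate number deviated together (correlations over genes of 0.136 to 0.648 in 12 comparisons), so replicate number was tried as a block. In a group of 2 the deviations of the replicates mirror each other, so that some of these correlations are the same value given again. The comparisons also share libraries and are not independent. Software was DESeq2 1.42.0 (an alternative) and edgeR 4.0.16 in R 4.3.3, and pandas 2.3.3 and matplotlib 3.10.9 in Python 3.11.15.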

Additional observations from a re-analysis of the deposited data

Results flagged for a closer look

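NEFL differed between the KO clones, as given above, with KO clone 5 lower by 1.27 log2 units than KO clone 1 (-1.27). CELF2, a neuronal RNA-binding gene, did so too. It held 6.21 and 5.78 CPM in KO clone 5 and 13.2 and 14.9 CPM in KO clone 1 (-1.23, edgeR adjusted p = 0.0104), against 17.5 to 27.2 CPM in WT libraries.

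Single libraries lay far from the rest of their genotype in 6 of 88 sets of 4 or 5 values tested. The cut-offs flag about 1 set in 20 for independent values of a single normal population. These sets pool clones and share the same libraries, so that this rate may not apply and nothing is read from the number flagged. In KO cells KO clone 5 replicate 1 was low for INA (14.7 CPM, others 16.8 to 17.1) and TNNT1 (21.1 CPM, others 25.5 to 26.1). In WT cells WT clone 1 replicate 1 was low for SYT11 (3.70 CPM, others 5.26 to 5.58) and high for NLGN1 (17.9 CPM, others 14.1 to 14.9) and GRIN1 (0.370 CPM, others 0 to 0.0886). Without it the log2 difference was -1.06 for SYT11 and -1.81 for NLGN1, and 5.17 for GRIN1. WT clone 7 replicate 2 was high for BSN (8.13 CPM, others 5.35 to 5.97).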

How the results depend on the processing

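All 21 alternatives kept the direction of the KO minus WT difference of 9 of the 10 genes, and 188 of 210 such values moved by less than 1 SD between libraries. That SD is of log2(CPM + 0.5) within genotypes, while the differences are those of the fits. The 0.5 shrinks the SD of genes at low levels, so that GAP43 and NEFM are held to a tighter limit. INA reversed without WT clone 1 (-0.0286). Without KO clone 1 NEFL was 4.47 and ATCAY 4.90; without KO clone 5 NES was 0.42, ATCAY 5.18 and NPTX2 3.08. Without WT clone 1 NEFL was 5.88, NEFM 2.83 and FAM19A5 2.91; without WT clone 7 NEFM was 1.35, and with 4 groups 2.09. GAP43 was -4.90 with DESeq2, -4.97 without KO clone 1, -4.50 without KO clone 5, -4.39 without WT clone 1 and -4.85 without WT clone 7. Leaving out 1 library gave 4.96 to 5.45 for NEFL, 1.60 to 2.20 for NEFM, 0.22 to 0.47 for INA, 0.54 to 0.73 for NES, 4.97 to 5.16 for ATCAY, 3.26 to 3.49 for NPTX2, 2.11 to 2.77 for SYT1, -5.38 to -4.35 for GAP43, -1.48 to -1.41 for ELAVL2 and 3.27 to 3.68 for FAM19A5.

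Genes called KO against WT (4123) were 3206 to 4114 without 1 library, 1639 with clones summed, 2338 without KO clone 1 and 2614 without KO clone 5. Neuronal list genes were 21 to 25 higher and 26 to 35 lower without 1 library, and 13 lower with clones summed. Between KO clones 123 genes were called, and 18 to 424 without 1 library: 38 and 29 without KO clone 5 replicates 1 and 2, 24 and 18 without those of KO clone 1, 79 without WT clone 7 replicate 2 and 424 without WT clone 1 replicate 1. A lone library was then assumed to vary like the other groups. Of the 10 genes 0 to 2 were called, 0 without KO clone 1 replicate 2, and 2 (NEFL and NES) without WT clone 1 replicate 1 and with DESeq2. Between WT clones 109 genes were called, 466 with DESeq2, 431 with the replicate block and 0 to 764 without 1 library, namely 0 without any 1 of the KO or WT clone 7 libraries, 3 without WT clone 1 replicate 3 and 764 without WT clone 1 replicate 1. Of the 10 genes 0 to 1 were called, INA being the 1 without WT clone 1 replicate 1 or 2, with DESeq2 and with the replicate block. The block changed no other call of the 10 genes between clones, and it ended that of BNIPL (edgeR adjusted p = 0.0665). Uncalled differences between clones reversed without 1 library. For KO clone 5 minus KO clone 1 they ran from -0.12 to 0.35 for NEFM (-0.09 in between), from -0.21 to 0.0095 for INA and from -3.04 to 2.44 for GAP43 (0.46 in between). For WT clone 7 minus WT clone 1 they ran from -1.62 to 0.40 for SYT1 (0.03 in between) and from -0.54 to 0.11 for ATCAY (0.10 in between). Of 247 values of called neighbours, an alternative chosen after seeing the data, 221 kept direction and call and 26 lost the call. Of 714 values of named list genes 672 kept direction and call and 42 lost the call. The cause was not tested. Low counts limit GAP43, NEFM and the genes opposite NEFL and NEFM, and likewise ENSG00000272405 near NES, CNTN1, GRIN1 and ATCAY.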
